A study of Homo sapiens with 8 samples.

Results

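The data cover 9 genes whose products recognise Z-form or double-stranded RNA, or carry that signal to interferon induction or cell death, across 4 groups of U2OS cells. U2OS is a human osteosarcoma cell line. The genes were chosen by symbol (ZBP1, TLR3, IFIH1, DHX58, EIF2AK2, MAVS, RIPK1, RIPK3 and MLKL), with earlier results of these data known, and all 9 were found among the 19414 coding genes listed in each library. ZBP1, DHX58 and RIPK3 were too low to test, and the other 6 passed the filter on low reads.

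As background, ZBP1 binds left-handed Z-form RNA or DNA through its Zα domains, a domain type it shares with the RNA-editing enzyme ADAR. When ZBP1 is engaged it recruits the kinases RIPK1 and RIPK3, and RIPK3 phosphorylates the pore-forming protein MLKL, which opens the plasma membrane in necroptosis. Double-stranded RNA is also detected in the endosome by TLR3 and in the cytoplasm by IFIH1 (MDA5), DHX58 (LGP2) and the kinase EIF2AK2 (PKR). IFIH1 signals to interferon genes through MAVS on mitochondria, and EIF2AK2 halts translation by phosphorylating eIF2α.

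The groups were labelled Zab + MYC O/E, MYC O/E, Zab and WT, with 2 libraries each of RNA labelled with 4-thiouridine (4-SU), an analogue taken into newly made RNA in the assay called TT-seq. MYC O/E stands for overexpression of the transcription factor MYC, and Zab for Zαβ, the usual name of ADAR's paired Z-nucleic-acid-binding domains, although the labels do not state the construct or how it was delivered. All libraries share the cell line and the 4-SU label, and the labels do not say whether the 2 libraries of a group are separate cultures, so the spread behind each p-value may be technical. The comparisons ask how newly made RNA differed with each label alone and with both.

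The libraries did not all match their labels. MYC averaged 762 ± 14.2 CPM (reads relative to each library's total, scaled between libraries) in the libraries labelled Zab + MYC O/E, 6592 ± 20.2 in MYC O/E, 966 ± 69.5 in Zab and 764 ± 17.1 in WT (SD, n = 2 each). ADAR averaged 32311 ± 41.8 CPM in Zab + MYC O/E, 455 ± 13.1 in MYC O/E, 543 ± 33.9 in Zab and 33906 ± 11.6 in WT. Thus MYC stood out in the MYC O/E libraries alone, and ADAR was high in those labelled Zab + MYC O/E and WT. Group names below are those of the labels, and every direction is a difference between libraries so labelled. Whether labels were exchanged between libraries was not tested, and an exchange of Zab and WT would turn the sign of every Zab over WT value. Except in Zab + MYC O/E over WT, where both groups had high ADAR reads, and MYC O/E over Zab, where both had low ones, each pair of groups compared sets high ADAR reads against low ones, and what the labels stand for cannot be told apart from that.

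Libraries held 1839960 to 4072059 coding-exon reads, with the fewest in Zab. Coding reads were 6.44 and 6.66 per 100 mapped tags in Zab, against 13.1 to 13.8 in the other 6 libraries. A chi-square per gene was 2.02 to 2.08 between the libraries of 1 group, 2.90 to 3.03 between a Zab + MYC O/E and a WT library, and 35.0 to 53.1 between libraries of other groups. The mesenchymal marker VIM averaged 2177 CPM in Zab + MYC O/E, 1817 in MYC O/E, 3067 in Zab and 2433 in WT. Of 15 mesenchymal and osteoblast markers only 9 passed the filter on low reads, and SP7 and TWIST1 had 0 reads in all 8 libraries. The T cell marker CD3E had 0 reads in all libraries. In such bulk samples, fewer cells making an RNA and less of it made per cell cannot be told apart.

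Promoter sequences were looked at because several of these genes are known to be interferon-inducible. Windows of 300 bases (250 before and 50 after an annotated start) from RefSeq on GRCh38.p14 were found for 6 of the 9 genes. They were searched on both strands for 3 patterns. GAAA, any 2 bases and GAAA again make the repeated core of the interferon-stimulated response element (ISRE), which interferon regulatory factors bind. TTCNNNGAA is the interferon-gamma activated site (GAS), and CACGTG is the E-box that MYC and MAX bind. The 4 windows below hold the ISRE pattern, shown in capitals with any GAS or E-box match.
EIF2AK2, chr2:37156931-37157230, minus strand: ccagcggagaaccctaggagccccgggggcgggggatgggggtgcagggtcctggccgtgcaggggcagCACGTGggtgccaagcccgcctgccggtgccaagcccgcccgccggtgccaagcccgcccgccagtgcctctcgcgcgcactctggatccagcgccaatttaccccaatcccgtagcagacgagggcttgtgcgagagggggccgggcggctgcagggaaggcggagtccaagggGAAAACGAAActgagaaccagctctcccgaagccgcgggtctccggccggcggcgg
IFIH1, chr2:162318635-162318934, minus strand: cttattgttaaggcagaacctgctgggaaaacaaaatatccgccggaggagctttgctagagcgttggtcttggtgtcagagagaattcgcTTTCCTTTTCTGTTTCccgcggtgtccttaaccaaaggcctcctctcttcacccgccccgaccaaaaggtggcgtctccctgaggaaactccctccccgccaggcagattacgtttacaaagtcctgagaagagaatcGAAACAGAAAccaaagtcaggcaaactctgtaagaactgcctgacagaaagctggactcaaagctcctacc
TLR3, chr4:186068906-186069205, plus strand: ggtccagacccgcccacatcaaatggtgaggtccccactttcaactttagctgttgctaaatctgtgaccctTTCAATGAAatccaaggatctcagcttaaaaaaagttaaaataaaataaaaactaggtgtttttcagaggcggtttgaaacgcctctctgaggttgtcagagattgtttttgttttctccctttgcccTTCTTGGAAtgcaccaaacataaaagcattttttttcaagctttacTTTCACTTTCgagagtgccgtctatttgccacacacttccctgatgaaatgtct
RIPK1, chr6:3068128-3068427, plus strand: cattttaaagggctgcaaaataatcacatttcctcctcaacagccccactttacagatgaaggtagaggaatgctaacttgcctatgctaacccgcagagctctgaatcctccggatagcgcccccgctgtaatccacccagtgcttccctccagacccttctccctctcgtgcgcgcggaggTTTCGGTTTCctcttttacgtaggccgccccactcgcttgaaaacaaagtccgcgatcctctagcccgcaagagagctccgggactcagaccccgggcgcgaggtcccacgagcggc
The 6 genes had 8 windows, 3 of them of RIPK1, and the ISRE pattern was in 5 of these 8, from 4 genes, against 3.57% of all 35116 windows and 2.77% of the 14323 windows of tested genes. In EIF2AK2 and TLR3 the match begins 6 and 4 bases before the start, GAAAACGAAA in EIF2AK2 and TTTCACTTTC in TLR3. IFIH1 holds 3 matches, of which 2 overlap. In RIPK1 the single match TTTCGGTTTC lies in the 2 windows at chr6:3068128-3068427 and chr6:3068244-3068543, which overlap. GAS was found in TLR3, against 7.66% of all windows, and CACGTG in EIF2AK2, against 7.26%. The windows of MAVS and MLKL held none of the 3 patterns. A match describes the letters only, and binding there was not measured.

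Per kilobase of exon, the 9 genes fell into 3 tiers. MLKL averaged 9.66 CPM per kb over the 8 libraries, RIPK1 9.53, EIF2AK2 8.64 and MAVS 8.63. These 4 lay near the middle of all tested genes, at percentiles 50.8, 50.3, 47.7 and 47.7 of the level per kb. IFIH1, at 0.917 CPM per kb, and TLR3, at 0.607, lay at percentiles 5.59 and 2.79. DHX58 averaged 0.10 CPM per kb, ZBP1 0.0889, and RIPK3 had no reads. The necroptosis kinase RIPK1 and the executioner MLKL were thus measured at mid-range, while the sensor ZBP1 and the kinase RIPK3 were at or near 0.

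**Figure D1:**
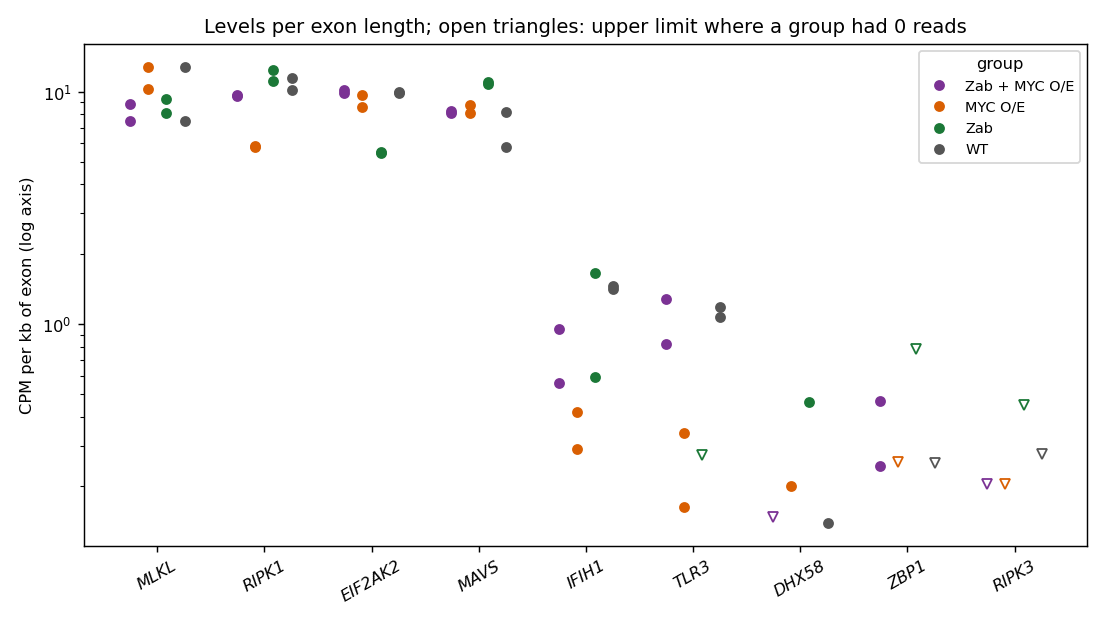
Level of each of the 9 genes in each library, as CPM per kb of counted exon on a log axis, ordered by the mean over 8 libraries. Points are libraries, open triangles are the upper limit of groups with 0 reads, and a library at 0 in a group with reads is not drawn. MLKL, RIPK1, EIF2AK2 and MAVS sit near 10, and IFIH1 and TLR3 near or below 1.

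The 3 genes too low to test can be given as reads. ZBP1, the Z-nucleic acid sensor, had 2 and 4 reads in the Zab + MYC O/E libraries and 0 in each of the 6 others. That is 0.519 and 0.993 CPM in Zab + MYC O/E, against upper limits for 0 reads (3 reads over a group) of 0.379 CPM in MYC O/E, 0.832 in Zab and 0.510 in WT. ZBP1 reads were thus seen in 1 group alone, but the 95% exact counting interval of that group's mean, 0.279 to 1.66 CPM, reaches below the limits of all 3 other groups. With no filter on low values limma called ZBP1 higher in Zab + MYC O/E than in MYC O/E (adjusted p = 0.0495) and than in Zab (adjusted p = 0.0454), and did not call it against WT (adjusted p = 0.608). The files also counted ZBP1 over 5 different transcripts of 841 to 2127 bases in different libraries (hg19, chromosome 20, at most 56178908 to 56195482, minus strand). In the Zab libraries it was counted over 1064 bases and in both Zab + MYC O/E libraries over at least 2124.

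DHX58, which modulates IFIH1 and the related receptor RIG-I, had 0 reads in both Zab + MYC O/E libraries, 2 and 0 in MYC O/E, 2 and 0 in Zab, and 0 and 1 in WT. Its groups overlapped, and with so few reads no fold is given. RIPK3, the kinase that activates MLKL, had 0 reads in all 8 libraries over its 1853 bases of exon, which allows a level of up to 0.119 CPM over all libraries. These limits and intervals take in counting error alone, and they are too narrow because most read numbers were even.

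TLR3, the endosomal receptor for double-stranded RNA, was made mainly in the libraries labelled Zab + MYC O/E and WT. It had 3.89 and 2.48 CPM in Zab + MYC O/E, 1.03 and 0.495 in MYC O/E, 0 and 0 in Zab, and 3.24 and 3.58 in WT. These rest on 15 and 10 reads, 4 and 2 reads, 0 reads, and 10 and 10 reads. The Zab + MYC O/E and WT libraries overlapped and lay above those of MYC O/E and Zab. TLR3 was lower in Zab than in WT (limma adjusted p = 0.00335) and higher in Zab + MYC O/E than in Zab (limma adjusted p = 0.00478). The means of WT and Zab + MYC O/E were 4.10 and 3.83 times a limit of 3 reads over the Zab group. Those ratios leave out the counting error of the 2 means. Their 95% exact counting intervals were 2.08 to 5.25 CPM in WT and 2.05 to 4.68 in Zab + MYC O/E. TLR3 passed the filter on low reads through 1 Zab + MYC O/E and 2 WT libraries, where it was high, so these p-values are not independent of the filter. With no filter, limma gave adjusted p = 0.000839 for Zab over WT and 0.00112 for Zab + MYC O/E over Zab. Without Zab + MYC O/E replicate 1, Zab + MYC O/E over Zab had a limma adjusted p of 0.0753. MYC O/E averaged 0.764 ± 0.380 CPM, against 3.41 ± 0.237 in WT, a log2 change of −1.34 ± 0.58 (SE) that limma did not call (adjusted p = 0.0640). It was called by edgeR (−2.11, adjusted p = 0.04999), by limma with no filter (adjusted p = 0.0167) and by limma without Zab replicate 1 or replicate 2 (adjusted p = 0.0331 each). Zab + MYC O/E over MYC O/E was 1.24 ± 0.58, also not called (limma adjusted p = 0.0848), but called with no filter (0.0235) and without Zab replicate 1 (0.0474) or replicate 2 (0.0473). On hg19, TLR3 lies on chromosome 4 from 186990309 to 187006252 on the plus strand.

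IFIH1, the cytoplasmic sensor of long double-stranded RNA, was scarce in every group. It had 3.37 and 1.99 CPM in Zab + MYC O/E, 1.03 and 1.48 in MYC O/E, 5.89 and 2.09 in Zab, and 5.18 and 5.01 in WT, on 4 to 16 reads a library. MYC O/E libraries lay below all others, and the Zab libraries lay on both sides of the WT values. IFIH1 averaged 1.26 ± 0.319 CPM in MYC O/E and 5.10 ± 0.127 in WT (SD, n = 2), 4.05-fold lower in MYC O/E (log2 change −1.44 ± 0.51, limma adjusted p = 0.0242). That call was lost when any 1 of the 4 MYC O/E and WT libraries was left out, with limma adjusted p between 0.0723 and 0.141. IFIH1 passed the filter through 4 libraries, none of them MYC O/E, and with no filter the limma adjusted p was 0.0343. On the deposited scale the change in MYC O/E over WT was −1.13 and was not called (limma adjusted p = 0.0523). No other comparison called IFIH1 by limma on all libraries, while without Zab replicate 2 it was lower in MYC O/E than in Zab (−1.62, limma adjusted p = 0.0131). Its gene lies on hg19 chromosome 2 from 163123584 to 163175194 on the minus strand.

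EIF2AK2, the kinase that stops translation on binding double-stranded RNA, was lower in Zab than in each of the other 3 groups. It had 97.8 and 101 CPM in Zab + MYC O/E, 85.5 and 95.9 in MYC O/E, 54.8 and 54.5 in Zab, and 99.2 and 98.3 in WT. The Zab libraries lay below all 6 others. Zab averaged 54.6 ± 0.251 CPM, 1.81-fold lower than the 98.7 ± 0.592 in WT (log2 change −0.84 ± 0.12, limma adjusted p = 1.71e-06). Zab + MYC O/E was 1.82-fold above Zab (0.85 ± 0.12, limma adjusted p = 1.37e-06), and MYC O/E was 1.66-fold above Zab (0.72 ± 0.12, limma adjusted p = 1.25e-05). MYC O/E differed from WT by −0.12 with a 95% interval of −0.37 to 0.12, which limma did not call, and by 0.37 on the deposited scale, where limma called it (adjusted p = 0.0104). The 3 differences from Zab kept their direction and call in all 18 alternative settings. EIF2AK2 lies on hg19 chromosome 2 from 37326353 to 37384123 on the minus strand and overlaps GPATCH11, which is on the opposite strand.

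MAVS, the mitochondrial adaptor of IFIH1 and RIG-I, went the other way and was highest in Zab. It had 95.2 and 96.8 CPM in Zab + MYC O/E, 103 and 95.2 in MYC O/E, 127 and 129 in Zab, and 67.7 and 95.8 in WT. The Zab libraries lay above all 6 others, and limma called no difference among the other 3 groups. MAVS was 1.56-fold higher in Zab than in WT (log2 change 0.66 ± 0.13, limma adjusted p = 0.000125). It was 1.33-fold lower in Zab + MYC O/E than in Zab (−0.41 ± 0.13, limma adjusted p = 0.0102) and 1.29-fold lower in MYC O/E than in Zab (−0.36 ± 0.13, limma adjusted p = 0.0181). MYC O/E over WT was 0.29 (limma adjusted p = 0.0667), and was called by edgeR (0.29, adjusted p = 0.0448), by limma on the deposited scale (0.79, adjusted p = 6.59e-06) and without Zab replicate 1 (0.0430), Zab replicate 2 (0.0440) or WT replicate 2 (0.00342). The differences from Zab depend on the scaling between libraries. The deposited scale keeps the submitters' factor per library, of unstated basis, and adds no other scaling. There MAVS changed by 0.06 in Zab over WT (limma adjusted p = 0.720), 0.47 in Zab + MYC O/E over Zab and 0.73 in MYC O/E over Zab, the last 2 with the sign reversed. With library totals the last 2 were −0.20 and −0.25 and were not called (limma adjusted p = 0.203 and 0.104). Leaving out Zab + MYC O/E replicate 1 or MYC O/E replicate 2 also ended those calls (limma adjusted p = 0.0636 and 0.144). MAVS lies on hg19 chromosome 20 from 3827481 to 3856765 on the plus strand.

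RIPK1, a kinase of the death receptor and ZBP1 pathways, was lower in the MYC O/E libraries than in any others. It had 43.3 and 43.4 CPM in Zab + MYC O/E, 23.5 and 23.7 in MYC O/E, 56.0 and 50.3 in Zab, and 48.9 and 43.6 in WT. The MYC O/E libraries lay far below the rest, and limma called no difference among the other 3 groups. It called RIPK1 on the deposited scale in Zab over WT (−0.40, limma adjusted p = 0.0480) and in Zab + MYC O/E over Zab (0.58, limma adjusted p = 0.00384). MYC O/E averaged 23.6 ± 0.174 CPM, 1.96-fold lower than the 46.3 ± 3.76 in WT (log2 change −0.94 ± 0.17, limma adjusted p = 6.63e-05). It was also 2.25-fold lower than Zab (−1.14 ± 0.17, limma adjusted p = 3.11e-06), and Zab + MYC O/E was 1.84-fold above MYC O/E (0.85 ± 0.17, limma adjusted p = 0.000211). The difference from Zab was lost on the deposited scale (−0.06, limma adjusted p = 0.759). The other 2 calls held in all 18 alternative settings, including the correction for transcript length. RIPK1 was counted over 4071 bases in MYC O/E, 4270 in WT, and 4494 in Zab and Zab + MYC O/E, with transcript starts at 3068728, 3064201 and 3068612. Per kb it averaged 5.80 ± 0.0427 CPM in MYC O/E and 10.8 ± 0.880 in WT. It lies on hg19 chromosome 6 from 3064201 to 3115421 on the plus strand.

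MLKL, the protein that opens the membrane in necroptosis, was not called by limma in any comparison except on the deposited scale. It had 21.8 and 18.4 CPM in Zab + MYC O/E, 31.5 and 25.2 in MYC O/E, 23.0 and 19.9 in Zab, and 18.5 and 31.5 in WT. The 2 WT libraries spanned the values of nearly all the others. In CPM scaled between libraries, the largest difference among the pairs was Zab + MYC O/E over MYC O/E, a log2 change of −0.47 with a 95% interval of −0.99 to 0.04 (limma adjusted p = 0.130). On the deposited scale, limma called MLKL in 5 comparisons. It was 0.70 in MYC O/E over WT (limma adjusted p = 0.0184), −0.74 in Zab over WT (0.0120), −0.69 in Zab + MYC O/E over MYC O/E (0.0229), 0.74 in Zab + MYC O/E over Zab (0.00917) and 1.44 in MYC O/E over Zab (6.77e-06). MLKL lies on hg19 chromosome 16 from 74705753 to 74734760 on the minus strand.

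**Figure D2:**
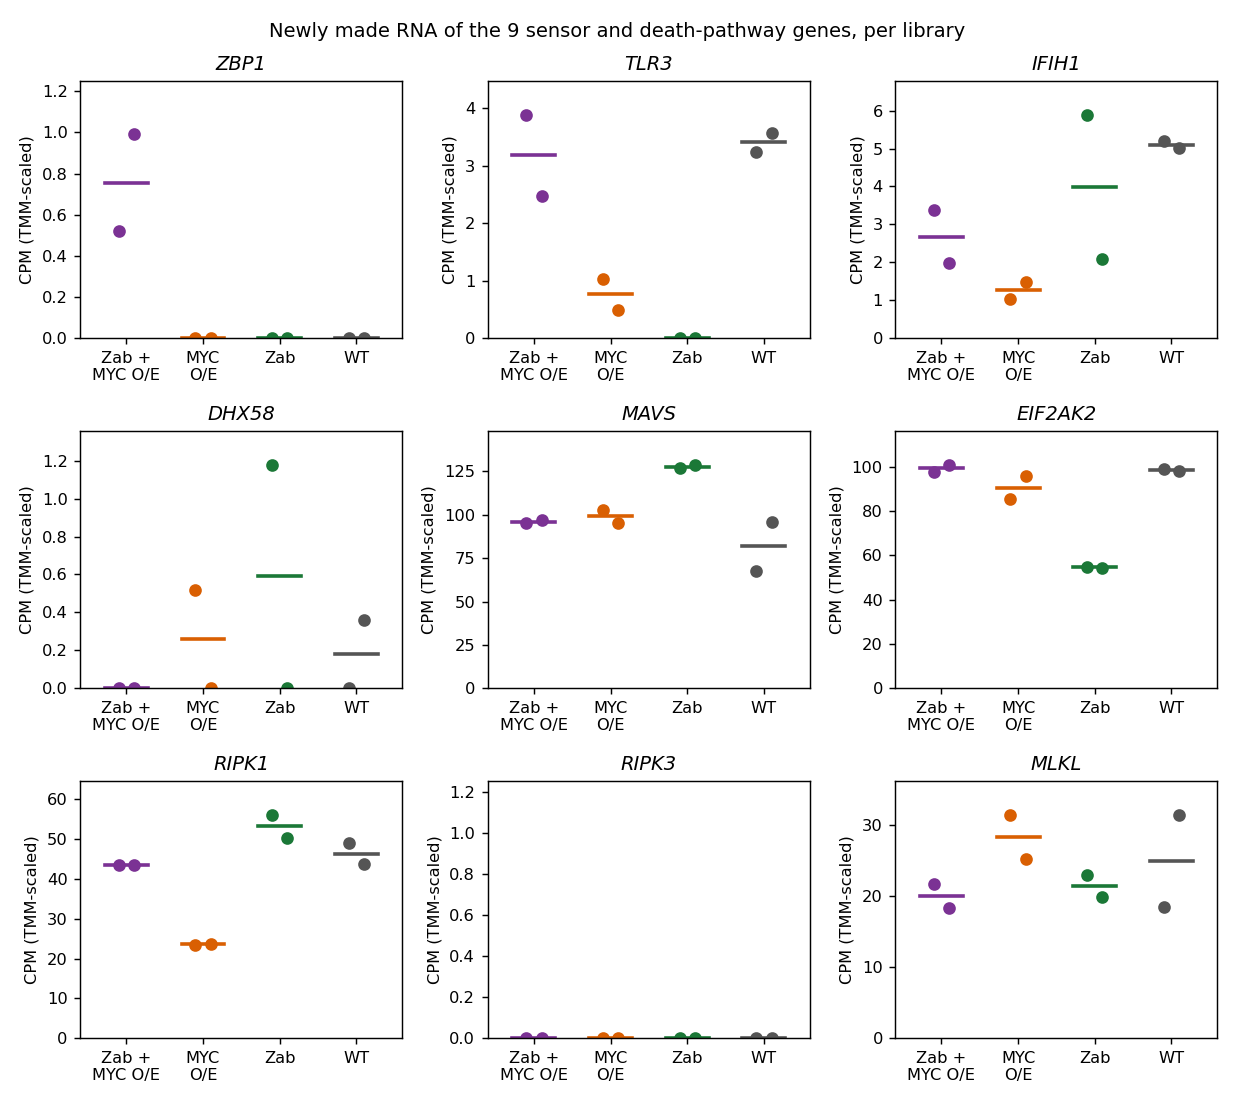
CPM with scaling between libraries, per library, for the 9 genes in Zab + MYC O/E, MYC O/E, Zab and WT; points are libraries and lines are means of 2. EIF2AK2 is lowest in both Zab libraries, RIPK1 is lowest in both MYC O/E libraries, and TLR3 has no reads in Zab.

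Read by comparison, MYC O/E over WT had RIPK1 and IFIH1 lower and no gene of the set higher by limma, 2 of the 6 tested genes called. edgeR called MAVS higher and TLR3 lower as well. Of all 11985 tested genes 44.1% were called there, 22.2% higher and 21.9% lower. On the deposited scale the split in the set was 3 higher and 1 lower. The median log2 change of the 6 was −0.53, against −0.01 over all tested genes, and on the deposited scale these were −0.04 and 0.47.

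By limma, Zab over WT had MAVS higher, and EIF2AK2 and TLR3 lower, 3 of the 6 tested genes, where 49.6% of all genes were called, 22.5% higher and 27.1% lower. On the deposited scale 0 were higher and 4 lower. The median of the 6 was −0.28, against −0.08 over all genes, and −0.78 and −0.63 on the deposited scale. EIF2AK2 stayed below that shift, at −1.43.

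Zab + MYC O/E over MYC O/E had 1 of the 6 called by limma, RIPK1, which was higher, where 44.6% of all genes were called, 22% higher and 22.5% lower. On the deposited scale MLKL was also called, and lower (−0.69, limma adjusted p = 0.0229). With no filter on low values, limma called TLR3 (adjusted p = 0.0235) and ZBP1 as well.

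Zab + MYC O/E over Zab had EIF2AK2 and TLR3 higher and MAVS lower, 3 of 6, where 49.5% of all genes were called, 26.8% higher and 22.6% lower. The split was 2 higher and 0 lower with library totals, and 5 higher and 0 lower on the deposited scale, where the median of all genes was 0.89. With no filter limma also called ZBP1.

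MYC O/E over Zab had EIF2AK2 higher, and MAVS and RIPK1 lower, again 3 of 6, against 56.5% of all genes, 30.6% higher and 25.9% lower. With library totals 1 was higher and 1 lower, and on the deposited scale 3 were higher and 0 lower. These comparisons share their groups, so their calls are not separate evidence.

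Zab + MYC O/E over WT called none of the 6 by limma, none by edgeR and none by DESeq2, and none had an unadjusted limma p under 0.05. Of all genes 0.576% were called, 0.134% higher and 0.442% lower. The log2 changes were 0.01 for EIF2AK2 (95% interval −0.24 to 0.26), −0.09 for RIPK1 (−0.44 to 0.27) and 0.25 for MAVS (−0.01 to 0.52). They were less tightly bounded for MLKL, at −0.26 (−0.78 to 0.26), IFIH1, at −0.75 (−1.81 to 0.30), and TLR3, at −0.09 (−1.29 to 1.10). On the deposited scale MAVS was called, at 0.52 (limma adjusted p = 0.00884), where the median of all genes was 0.27.

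The interaction, which is the change in Zab + MYC O/E over MYC O/E minus that in Zab over WT, was called for 4 of the 6 genes, against 53.3% of all genes, 29.3% above 0 and 24% below. It was 3.38 ± 0.82 for TLR3 (limma adjusted p = 0.00111, and 0.000314 with no filter, since TLR3 passed the filter through its high groups), 0.98 ± 0.17 for EIF2AK2 (limma adjusted p = 2.53e-05) and 0.65 ± 0.25 for RIPK1 (limma adjusted p = 0.0265). For MAVS it was −0.70 ± 0.18 (limma adjusted p = 0.00204), and −0.32 and not called on the deposited scale. By arithmetic the same number is WT and Zab + MYC O/E together minus Zab and MYC O/E together, which is also the high-ADAR libraries minus the low-ADAR ones. The RIPK1 call held in 10 of 18 alternative settings, and the TLR3 and EIF2AK2 calls in all 18.

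**Figure D3:**
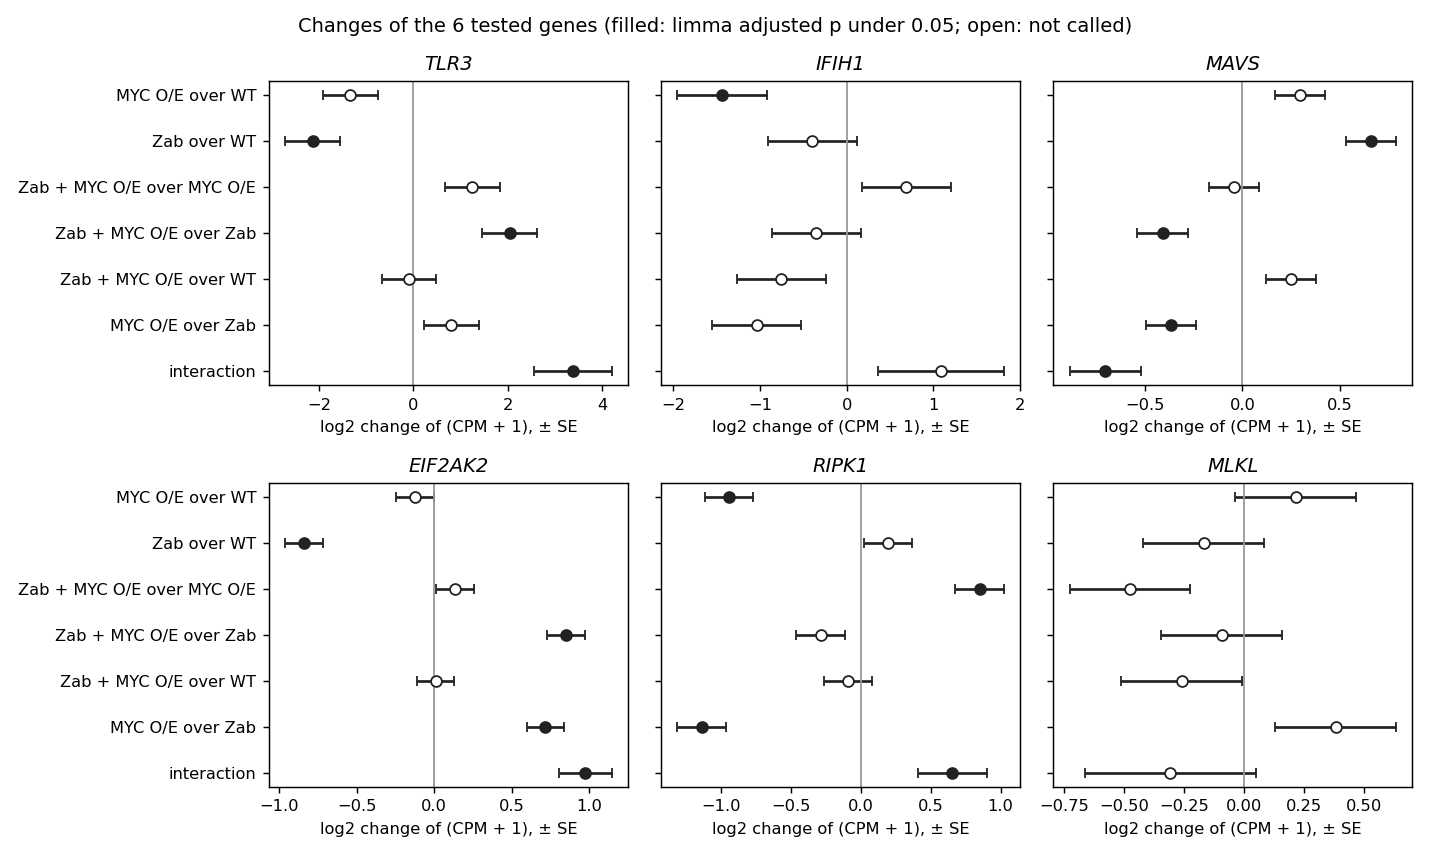
Log2 change of CPM plus 1 with its SE for the 6 tested genes in the 7 comparisons, each panel on its own scale; filled points have a limma adjusted p under 0.05. All 6 points for Zab + MYC O/E over WT are open.

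Gene span moved with the Zab differences. In Zab over WT the median log2 change of all tested genes was 0.34 for genes spanning up to 5 kb, 0.13 for 5 to 20 kb, −0.11 for 20 to 50 kb, −0.28 for 50 to 100 kb and −0.36 beyond 100 kb. EIF2AK2 spans 57.8 kb and changed by −0.84, just under the lower quartile of its span class, −0.83. TLR3 spans 15.9 kb and fell by 2.14 where the class median was 0.13, and MAVS spans 29.3 kb and rose by 0.66 where it was −0.11. RIPK1, at 51.2 kb, changed by 0.20 and was not called. All spans are those of the transcript counted in WT replicate 1. In the other groups RIPK1 was counted from a later start, 3068612 or 3068728, so its span there was shorter and its class may differ. In MYC O/E over WT the class medians ran only from −0.14 to 0.03, while RIPK1 changed by −0.94. The part of span, or of the lower share of coding reads in Zab, in these differences was not tested.

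**Figure D4:**
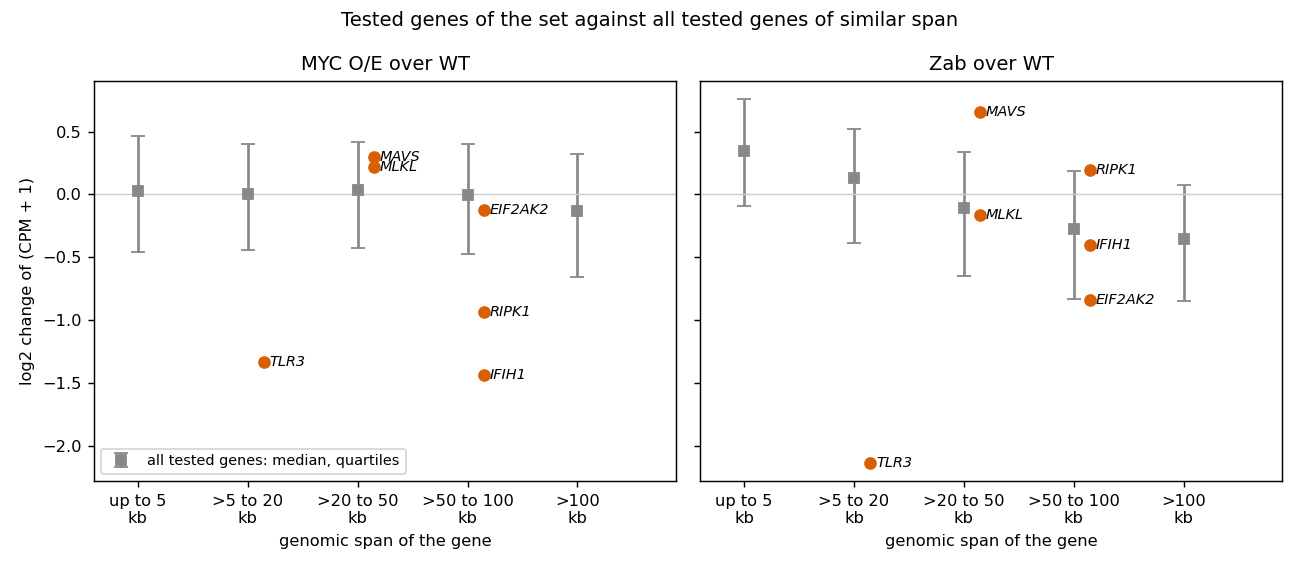
Log2 change of the 6 tested genes (orange) beside the median and quartiles of all tested genes in 5 classes of genomic span (grey), in MYC O/E over WT (left) and Zab over WT (right). Spans are those of the transcript counted in WT replicate 1. In Zab over WT the grey medians run down from 0.34 to −0.36 as span grows.

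The other genes of these pathways were read from 8 lists with 175 genes, all of them in the files. Each count of rises and falls is by limma. In CPM scaled between libraries, its share of the list's tested genes is set beside the share of all tested genes. For the deposited scale, shares of all genes called higher and lower are not given. There limma called 6987 of all 11985 genes in MYC O/E over WT (median log2 change 0.47) and 7457 in Zab over WT (−0.63). It called 5859 in Zab + MYC O/E over MYC O/E (−0.19) and 9044 in Zab + MYC O/E over Zab (0.89). Splits on that scale are to be read beside these medians. In the interferon-stimulated effector list, 27 of 39 genes were tested. In MYC O/E over WT, 1 rose and 13 fell, 3.7% and 48.1% against 22.2% and 21.9% of all tested genes. Their median log2 change was −0.66, against −0.01 over all tested genes, and on the deposited scale 3 rose and 9 fell with a median of −0.29 against 0.47. The antiviral gene SAMD9 fell by 1.98 ± 0.39 and TRIM22 by 1.81 ± 0.33, while IFITM3, which blocks virus entry, rose by 0.62 ± 0.14. Zab over WT had 8 rises and 7 falls (29.6% and 25.9%, against 22.5% and 27.1% of all genes), with 8 and 11 under library totals and 6 and 12 on the deposited scale. There ISG15, a ubiquitin-like modifier, averaged 64.4 CPM in Zab, against 8.5 in WT, and rose by 2.77 ± 0.33, while SAMD9 averaged 0.524 CPM in Zab, against 22.0 in WT, and fell by 3.99 ± 0.39. In Zab + MYC O/E over MYC O/E, 13 rose and 1 fell (48.1% and 3.7%, against 22% and 22.5% of all genes), with 14 and 1 on the deposited scale, SAMD9 by 2.51 ± 0.39 and IFI6 by 1.65 ± 0.32 among the rises. In Zab + MYC O/E over Zab, 8 rose and 9 fell (29.6% and 33.3%, against 26.8% and 22.6% of all genes), with 14 and 6 on the deposited scale.

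The interferon and receptor signalling list had 12 of 16 genes tested, since IFNB1, IFNL1, IFNL2 and IFNL3 had 0 reads in all 8 libraries. In MYC O/E over WT, 1 rose and 5 fell (8.33% and 41.7%, against 22.2% and 21.9% of all genes), and on the deposited scale 4 and 3. The list's median log2 change was −0.13. IRF9 and STAT2, subunits of the factor that binds the ISRE, fell by 2.47 ± 0.32 and 1.45 ± 0.15. IRF9 averaged 3.43 CPM in MYC O/E, against 22.9 in WT, and STAT2 22.8 CPM, against 64.3. Zab over WT had 3 rises and 4 falls (25% and 33.3%, against 22.5% and 27.1%) and a median of −0.02, with 2 and 6 under library totals and on the deposited scale and 4 and 2 under DESeq2's size factors. The transcription factor IRF1 rose by 1.35 ± 0.33 and IRF9 fell by 1.05 ± 0.32 there.

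Among 16 tested other RNA and DNA sensors, 3 rose and 5 fell in MYC O/E over WT, and 4 and 5 on the deposited scale. These are 18.8% and 31.2%, against 22.2% and 21.9% of all genes, and the list's median was −0.35. DDX58, which encodes RIG-I, averaged 3.29 CPM in MYC O/E, against 14.1 in WT, and fell by 1.81 ± 0.35. OAS3, which makes the activator of RNase L, fell by 1.73 ± 0.27. Among the rises there, DHX15 rose by 0.57 ± 0.09 and DHX9 by 0.47 ± 0.06. Zab over WT had 4 rises and 5 falls (25% and 31.2%, against 22.5% and 27.1%), and 3 and 9 on the deposited scale. OASL, an OAS relative without that enzyme activity, averaged 34.7 CPM in Zab, against 1.93 in WT, and rose by 3.74 ± 0.52, and OAS3 rose by 1.07 ± 0.27.

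Among 16 tested adaptors and kinases below MAVS and TLR3, 4 rose and 6 fell in MYC O/E over WT, with 6 and 1 on the deposited scale. These are 25% and 37.5%, against 22.2% and 21.9% of all genes, and the median was −0.20. Zab over WT had 6 rises and 4 falls (37.5% and 25%, against 22.5% and 27.1%) and a median of 0.20, with 5 and 6 under library totals and 0 and 7 on the deposited scale. TBK1, the kinase that activates IRF3, averaged 17 CPM in MYC O/E, 7.24 in Zab and 37.4 in WT, and fell by 1.09 ± 0.23 and 2.22 ± 0.23. TANK, which binds TBK1, fell by 2.15 ± 0.36 in Zab over WT, where TRADD rose by 1.24 ± 0.37 and TRAF3 by 0.78 ± 0.15. Among the rises in MYC O/E over WT, UNC93B1 rose by 0.97 ± 0.20 and CHUK by 0.78 ± 0.25. TICAM1, the adaptor of TLR3, rose by 0.53 ± 0.18 in Zab over WT (limma adjusted p = 0.0158), and was chosen here after its values were seen.

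The 19 tested regulators of RIG-I-like receptors had 7 rises and 5 falls in MYC O/E over WT, with 12 and 0 on the deposited scale. These are 36.8% and 26.3%, against 22.2% and 21.9% of all genes, and the median was 0.23. In Zab over WT they had 5 and 7 (26.3% and 36.8%, against 22.5% and 27.1%), with 1 and 15 on the deposited scale. TRIM25, a ubiquitin ligase of RIG-I, averaged 285 CPM in Zab, against 92.9 in WT, and rose by 1.61 ± 0.10. RNF125, a ligase that marks RIG-I and MAVS for degradation, rose by 1.68 ± 0.40 in MYC O/E over WT and fell by 1.67 ± 0.40 in Zab over WT.

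Of 20 tested genes of eIF2 kinases and the integrated stress response, 6 rose and 4 fell in MYC O/E over WT, with 15 and 1 on the deposited scale. These are 30% and 20%, against 22.2% and 21.9% of all genes, and the median was 0.19. PPP1R15A, the subunit that directs removal of eIF2α phosphate, averaged 35.0 CPM in MYC O/E, against 147 in WT, and fell by 2.06 ± 0.13. In Zab over WT, 5 rose and 7 fell (25% and 35%, against 22.5% and 27.1%), with 3 and 11 under library totals and 2 and 14 on the deposited scale. The stress-induced factor DDIT3 (CHOP) rose by 1.80 ± 0.31 and EIF2S2, the β subunit of eIF2, fell by 1.33 ± 0.10. DNAJC3, an inhibitor of EIF2AK2, averaged 34.3 CPM in Zab, against 9.995 in WT, and rose by 1.68 ± 0.27, where EIF2AK2 itself fell.

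Of 27 tested genes of necroptosis and death receptor complexes, 5 rose and 10 fell in MYC O/E over WT, with 3 and 12 under library totals and 16 and 5 on the deposited scale. These 5 and 10 are 18.5% and 37%, against 22.2% and 21.9% of all genes, and the median was −0.24. TNFAIP3, the A20 enzyme that edits ubiquitin on RIPK1, averaged 4.9 CPM in MYC O/E, against 38.6 in WT, and fell by 2.75 ± 0.24. BIRC3, a ubiquitin ligase of RIPK1, fell by 2.66 ± 0.46, and PGAM5, a mitochondrial phosphatase, rose by 1.43 ± 0.08. Zab over WT had 9 rises and 9 falls (33.3% each, against 22.5% and 27.1% of all genes) and a median of 0.03, with 2 and 14 on the deposited scale. IPMK, a kinase on the path to the inositol phosphates that assist MLKL, fell by 2.13 ± 0.28 there, and BIRC3 by 2.59 ± 0.46. In Zab + MYC O/E over MYC O/E, 12 rose and 5 fell (44.4% and 18.5%, against 22% and 22.5%), with 7 and 7 on the deposited scale, TNFAIP3 by 2.67 ± 0.24 and BIRC3 by 2.53 ± 0.46 among the rises. In Zab + MYC O/E over Zab, 8 rose and 9 fell (29.6% and 33.3%, against 26.8% and 22.6%), with 11 and 7 under library totals and 22 and 1 on the deposited scale.

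Of 17 tested double-stranded RNA binding or limiting genes, 4 rose and 3 fell in MYC O/E over WT (23.5% and 17.6%, against 22.2% and 21.9% of all genes), with 13 and 2 on the deposited scale. In Zab over WT, 4 rose and 9 fell (23.5% and 52.9%, against 22.5% and 27.1%) and the median was −0.28, with 5 and 7 under DESeq2's size factors and 0 and 13 on the deposited scale. Besides ADAR, DICER1, which cuts double-stranded RNA into short RNAs, averaged 27.0 CPM in Zab, against 72.7 in WT, and fell by 1.40 ± 0.15.

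In Zab + MYC O/E over WT, limma called 0 of the 154 tested genes of the 8 lists, against 0.576% of all tested genes. edgeR called 2 and DESeq2 3, where they called 146 and 118 of all 11985 tested genes. An unadjusted limma p under 0.05 was found for 15 of the 154. The share of all genes with one was not counted, so this number cannot be read as high or low. Markers of other cell types moved with the groups too. The summed level of 7 epithelial markers was 1268 to 1290 CPM in Zab + MYC O/E, 867 to 907 in MYC O/E, 2346 to 2485 in Zab and 1370 to 1403 in WT, mostly from KRT8 and KRT18. The 8 blood cell markers summed to 33.3 to 33.7, 10.3 to 11.4, 34.6 to 40.7 and 29.5 to 40.0 CPM in the same groups, nearly all of it CD68. The 15 mesenchymal and osteoblast markers, of which 9 were tested, had 1 rise and 6 falls in MYC O/E over WT. These are 11.1% and 66.7%, against 22.2% and 21.9% of all genes, with 3 and 4 on the deposited scale. In Zab over WT they had 1 and 2 (11.1% and 22.2%, against 22.5% and 27.1%), with 1 and 6 under library totals and 0 and 8 on the deposited scale. The part of these shifts in the results above was not tested.

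**Figure D5:**
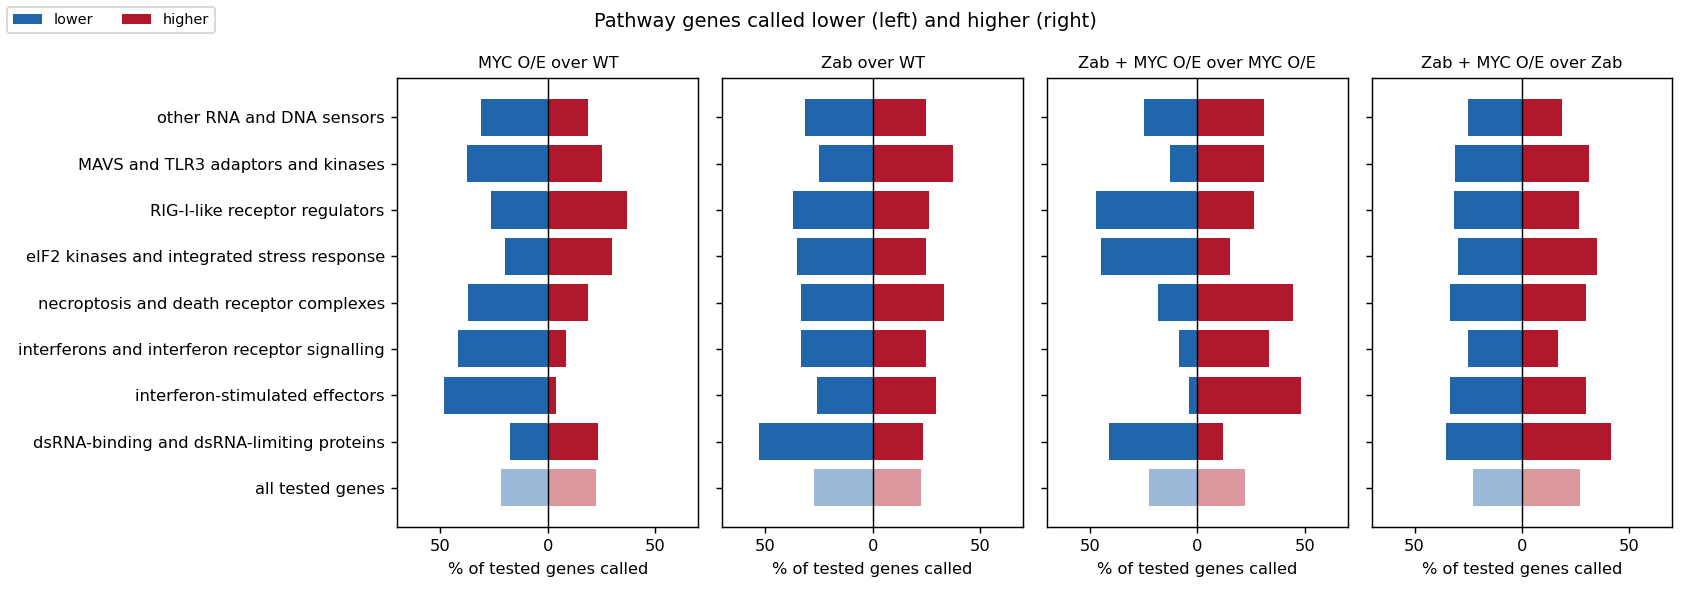
Share of the tested genes of each of 8 pathway lists that limma called lower (blue, left) and higher (red, right) in 4 comparisons, with all 11985 tested genes in the bottom row. In MYC O/E over WT the interferon-stimulated effectors had 13 of 27 lower and 1 higher; the splits of most lists differ on the deposited scale.

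The genes whose pattern over the 8 libraries was most like that of each gene were found among 10762 tested genes with at least 5 CPM, by Pearson's r of log2(CPM + 1) over 8 libraries that share 4 groups. They were RAD17 (r = 0.996), USP8 (0.994) and RPL26 (0.994) for EIF2AK2, and ATG16L1 (0.986), TTC7A (0.951) and ATP5F1D (0.951) for MAVS. They were CSRP1 (0.998), CD63 (0.993) and CCNI (0.992) for RIPK1, and KCTD14 (0.941), TAF4 (0.922) and MTO1 (0.920) for MLKL. For the scarce TLR3 they were SNX13 (0.993), PAK1IP1 (0.988) and TUT7 (0.988), and for IFIH1 PGM3 (0.958), AP2B1 (0.953) and KYNU (0.937). These are descriptions over few groups, picked as the highest of many.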

How the data were processed

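TT-seq libraries of U2OS cells, 2 in each of 4 label groups, were used as deposited. The builds hg19 and dm6 and the tools bedtools 2.29.2, SAMtools 1.11, STAR and Trim Galore 0.6.6 stand, with no roles, in the submitters' processing notes. Per the file headers, the authors counted tags with HOMER's analyzeRepeats on the opposite strand over hg19 RefSeq coding exons, with raw values and 1 transcript kept per symbol. The transcript kept did not vary between libraries for 10453 of 19414 genes. The deposited values are a signal and not whole counts: within a library they are whole reads times 1 factor of unstated basis. Dividing by it gave whole reads (within 0.02) for 99.96% to 100% of values. Between 77.2% and 82.7% of the values from 1 to 20 reads were even.

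The test, chosen for a scaled signal, was limma 3.58.1 (R 4.3.3) on log2(CPM + 1), with TMM scaling (edgeR 4.0.16) of the deposited values and a trend in the prior variance. Genes were kept by filterByExpr on the recovered reads (minimum 10), and 11985 passed. A single fit held all 8 libraries and a mean for each group, leaving 4 residual degrees of freedom. Calls had a Benjamini-Hochberg adjusted p under 0.05 over all tested genes, and changes given as log2 are on the log2(CPM + 1) scale, which understates those of low genes. Values written as fold are ratios of mean CPM. An exact permutation of 2 libraries against 2 cannot give a two-sided p below 0.333, so none was used. edgeR's quasi-likelihood test and DESeq2 1.42.0 on the recovered reads were alternatives, and the first called 5776 genes in MYC O/E over WT, where limma called 5280, and 5698 in Zab over WT, where limma called 5939. Other alternatives were library totals, the deposited scale, DESeq2's size factors, a pseudocount of 0.5, no filter, a replicate block, the 2 libraries of WT and of Zab + MYC O/E averaged, 1 transcript length per gene, and leaving out each library. The deposited scale kept the factor per library of the deposited values and added no other scaling. The method was tested on simulated reads.

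The 9 genes, the 8 pathway lists and the 3 marker lists were chosen with earlier results of these data known. Named genes were the 9, MYC and ADAR, up to 2 rises and 2 falls per list and comparison among called genes with at least 5 CPM, and the 3 genes most like each tested gene. Promoter windows are RefSeq's on GRCh38.p14, and no coordinate was converted between builds.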

Additional observations from a re-analysis of the deposited data

Results flagged for a closer look

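In 4 of the 6 tested genes limma called the interaction term, against 53.3% of all tested genes. It sets the change between groups labelled with and without Zab where both labels hold MYC O/E against that where neither does. TLR3 was higher in Zab + MYC O/E than in MYC O/E (log2 change 1.24) and lower in Zab than in WT (−2.14), a difference of 3.38 on the log2(CPM + 1) scale that rests on 0 to 15 reads a library. TLR3 passed the filter on low reads through its high groups, so this test is not independent of the filter; with no filter the limma adjusted p was 0.000314. EIF2AK2 changed by 0.13 and −0.84 in the same comparisons, a difference of 0.98. RIPK1 changed by 0.85 and 0.20, a difference of 0.65, and MAVS by −0.04 and 0.66, a difference of −0.70. The RIPK1 call held in 10 of 18 alternative settings, and the MAVS term was −0.32 and not called on the deposited scale. MYC averaged 762 CPM in Zab + MYC O/E, 6592 in MYC O/E, 966 in Zab and 764 in WT. The groups whose labels hold MYC O/E thus did not share a high MYC level. No explanation was weighed, and since ADAR reads were high in Zab + MYC O/E and WT and low in MYC O/E and Zab, an interaction of the labels and a difference between those libraries cannot be told apart.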

How the results depend on the processing

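Of 15 counts of called genes of the set that moved by over 1.5 times, none was in Zab over WT, MYC O/E over Zab or the interaction. On the deposited scale, limma called 4 in MYC O/E over WT (main 2), 2 in Zab + MYC O/E over MYC O/E (main 1), 5 in Zab + MYC O/E over Zab (main 3) and 1 in Zab + MYC O/E over WT (main 0). In MYC O/E over WT edgeR called 4, and averaging the WT and the Zab + MYC O/E pairs left 1. No filter on low values gave 3 in Zab + MYC O/E over MYC O/E. Leaving out 1 library gave 1 to 4 in MYC O/E over WT, 1 to 2 in Zab + MYC O/E over MYC O/E and 1 to 3 in Zab + MYC O/E over Zab. Over all genes, Zab + MYC O/E over WT had 69 calls, and 0 with those pairs averaged to 1 sample each, 17 with no filter, 118 by DESeq2, 146 by edgeR, 22 to 155 with 1 library left out and 1752 on the deposited scale. Averaging the pairs left 3471 calls in MYC O/E over WT and 3955 in Zab over WT, and the deposited scale gave 9044 in Zab + MYC O/E over Zab, where limma called 5928.

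Signs reversed in 25 recomputed changes of single genes. Only 2 had been called, MAVS on the deposited scale in Zab + MYC O/E over Zab (0.47) and in MYC O/E over Zab (0.73). The other reversals on the deposited scale were, in MYC O/E over WT, EIF2AK2 (0.37), in Zab over WT, RIPK1 (−0.40), in Zab + MYC O/E over MYC O/E, EIF2AK2 (−0.087), in Zab + MYC O/E over Zab, IFIH1 (0.29), MLKL (0.74) and RIPK1 (0.58), in Zab + MYC O/E over WT, MLKL (0.0053), RIPK1 (0.18) and TLR3 (0.12), and in the interaction MLKL (0.046). With library totals they were MAVS in Zab + MYC O/E over MYC O/E (0.046) and MLKL in Zab + MYC O/E over Zab (0.11). With 1 library left out, the changes that could reverse ran, for MLKL, from −0.14 to 0.58 in MYC O/E over WT, −0.53 to 0.20 in Zab over WT, −0.21 to 0.026 in Zab + MYC O/E over Zab, −0.62 to 0.11 in Zab + MYC O/E over WT and −0.68 to 0.042 in the interaction. IFIH1 ran from −0.98 to 0.18 in Zab over WT and −0.93 to 0.22 in Zab + MYC O/E over Zab, MAVS from −0.10 to 0.012 in Zab + MYC O/E over MYC O/E, and in Zab + MYC O/E over WT EIF2AK2 ran from −0.013 to 0.033 and TLR3 from −0.34 to 0.15. The cause was not tested.

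Replicate numbers did not pair the libraries: deviations of same-numbered libraries correlated between −0.044 and 0.002 over 10762 genes. A replicate block gave 2 called genes of the set in MYC O/E over WT, 3 in Zab over WT, 1 in Zab + MYC O/E over MYC O/E, 3 in Zab + MYC O/E over Zab, 0 in Zab + MYC O/E over WT, 3 in MYC O/E over Zab and 4 in the interaction, as without it. Depth limits TLR3 and IFIH1, at no more than 16 reads a library, and ZBP1, DHX58 and RIPK3, at no more than 4 reads a library, did not pass the filter.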
